A study of Homo sapiens with 6 samples.

Results

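The 10 genes described here are the core of the DNA methylation and Polycomb machinery: the writers DNMT1, DNMT3A and DNMT3B with their partner UHRF1, the erasers TET1, TET2 and TET3, and EZH2, EED and SUZ12 of Polycomb repressive complex 2 (PRC2). They were chosen by name from the 42540 rows of a table of RNA-seq counts per gene, and all 10 were present and passed the filter on low counts. The RNA came from MiaPaCa2 cells, a human pancreatic ductal adenocarcinoma (PDAC) line, in all 6 libraries. The 3 control libraries carry the genotype label WT and come from cells engineered with CasRx, a Cas13d nuclease that cuts RNA at sites set by a guide RNA. The 3 knockdown libraries carry the label KD and come from the same CasRx cells with a stably expressed guide against PPP2R1A, the scaffold subunit of the phosphatase PP2A. The study describes the controls as CasRx cells and names no guide in them. The knockdown cells were also transduced with a lentivirus and selected with puromycin. These steps cannot be told apart from the knockdown here. Each arm is a single engineered culture line. The study gathered its samples over 3 weeks and found the knockdown reduced at the last time point. The labels number the samples 1 to 3 without naming a week, and the library names carry 3 further numbers that both arms share and that rise from sample 1 to sample 3. Time in culture and sample number cannot be told apart. A p-value here reflects the spread among these libraries alone, which may be technical.

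Genes can be kept off for many cell divisions by methyl groups on the cytosines of CpG pairs or by trimethylation of lysine 27 of histone H3. DNMT1, brought to newly copied DNA by UHRF1, restores methylation after replication, DNMT3A and DNMT3B place it at new sites, and the TET enzymes oxidise it so that it can be lost. EZH2 is the catalytic subunit of PRC2 and acts only together with EED, which binds the methylated histone, and SUZ12, which holds the complex together. The mRNA of several of these genes follows the cell cycle in dividing cells, since they are targets of E2F transcription factors.

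The knockdown itself was checked first. PPP2R1A stood at 590, 624 and 648 TMM-normalized CPM (the count scaled by the size of its library) in control 1, 2 and 3, at 143 and 143 CPM in knockdown 1 and 2, and at 545 CPM in the library labelled knockdown 3. The level in knockdown 1 and 2 was 4.27-fold below control 1 and 2 (log2 fold change -2.09, standard error 0.0851, edgeR adjusted p = 0.0107), while the library labelled knockdown 3 was near the controls. The study left out the third knockdown sample for a weaker knockdown, so knockdown 1 and 2 against control 1 and 2 is the main comparison here. The libraries hold 28499214 to 45040033 counts. Of 15386 genes, 383 to 481 differed by 4-fold or more within any pair of control 1, control 2 and the library labelled knockdown 3, 322 differed between knockdown 1 and knockdown 2, and 981 to 1493 differed in every other pair, including control 3 against control 1 and 2. Control 3 thus stood apart from the other controls, and values are given with and without replicate 3. Of the markers of other cell types, PTPRC and CD3E (leukocyte), PECAM1 and KDR (endothelium) and LUM (fibroblast) had no count in any library. The summed level of 5 epithelial markers, mostly KRT8 and KRT18, was 8080 and 9295 CPM in knockdown 1 and 2 and 1367 to 4060 CPM in the other libraries. In that list KRT8 and KRT18 rose, KRT19 fell (43.0 and 46.1 CPM in control 1 and 2, 15.8 and 11.6 CPM in knockdown 1 and 2, log2 fold change -1.71, edgeR adjusted p = 0.0268), and the defining markers EPCAM and CDH1 had at most 1 and 6 counts in a library. That of 4 mesenchymal markers, mostly VIM, was 3779 and 4792 CPM against 7400 to 10671 CPM. The summed markers of leukocytes, endothelium and fibroblasts ranged over 0.490 to 5.79, 0 to 60.7 and 0 to 2.13 CPM, and the endothelial sum was mostly CDH5 in knockdown 1 and 2. CDH5 rose there against control 1 and 2 (log2 fold change 4.17, edgeR adjusted p = 0.0172). VWF went from 0 counts in control 1 and 2 to 56 and 65 in knockdown 1 and 2 (edgeR adjusted p = 0.0252). CD68 of the leukocyte list fell (-2.25, edgeR adjusted p = 0.0466), while CD14 and COL1A1 did not pass. LYZ had 174 counts in control 3 and none elsewhere. The part of these marker shifts in the changes below was not tested.

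The data show a lower mRNA level of a maintenance methyltransferase, a PRC2 catalytic subunit and a TET enzyme in knockdown 1 and 2 than in control 1 and 2. DNMT1, EZH2 and TET3 fell in knockdown 1 and 2 against control 1 and 2, by 1.66-fold, 1.71-fold and 1.42-fold. None of the 10 genes was called higher, and 7 did not pass the test at an adjusted p of 0.05. Of the 10, 5 had a positive log2 fold change and 5 a negative one. Over all 15596 tested genes 13.6% passed it (7.15% higher and 6.41% lower), and the 10 genes and all tested genes both had a median log2 fold change of 0.01. At an unadjusted p under 0.05 there were 4 of the 10, beside 32.9% of all tested genes. The 3 calls rest on all 4 libraries: with any 1 of the 4 libraries left out, edgeR called no gene in the whole table. With the sample number as a block, edgeR again called no gene, and its adjusted p was 0.0653 for DNMT1, 0.0653 for EZH2 and 0.0853 for TET3. The 3 calls thus hold only with the libraries treated as unpaired. They also end against all 3 controls (edgeR adjusted p of 0.0566 for DNMT1, 0.145 for EZH2 and 0.254 for TET3), where edgeR called 704 genes of the table. With all 6 libraries, edgeR called 0 of the 10 genes against a background of 0.0065%, and 0 of them had an unadjusted p under 0.05, beside 8.24% of all tested genes.

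The promoters of 6 of these genes are shown as the DNA on which methylation, or E2F factors, could act: the 3 genes that fell, their partners UHRF1 and SUZ12, and TET2, whose level was low in 1 control library. Each line gives the 250 bases before the transcription start that RefSeq lists first, on the strand of the gene (build GRCh38.p14), with CpG pairs in capitals. The positions are chr19:10194954-10195203 (minus strand) for DNMT1, chr19:4909251-4909500 (plus) for UHRF1, chr2:73984660-73984909 (plus) for TET3, chr4:105145625-105145874 (plus) for TET2, chr7:148884292-148884541 (minus) for EZH2 and chr17:31936757-31937006 (plus) for SUZ12.
DNMT1: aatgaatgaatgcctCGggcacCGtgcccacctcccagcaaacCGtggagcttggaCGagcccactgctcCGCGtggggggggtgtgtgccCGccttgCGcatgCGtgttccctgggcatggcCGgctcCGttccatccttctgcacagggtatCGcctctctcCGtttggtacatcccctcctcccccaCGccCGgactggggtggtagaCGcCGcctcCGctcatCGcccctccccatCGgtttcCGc
UHRF1: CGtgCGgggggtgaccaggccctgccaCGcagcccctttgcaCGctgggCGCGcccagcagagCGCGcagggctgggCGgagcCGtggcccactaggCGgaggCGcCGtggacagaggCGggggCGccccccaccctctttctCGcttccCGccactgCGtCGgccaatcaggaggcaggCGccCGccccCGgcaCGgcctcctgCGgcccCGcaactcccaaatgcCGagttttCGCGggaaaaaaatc
TET3: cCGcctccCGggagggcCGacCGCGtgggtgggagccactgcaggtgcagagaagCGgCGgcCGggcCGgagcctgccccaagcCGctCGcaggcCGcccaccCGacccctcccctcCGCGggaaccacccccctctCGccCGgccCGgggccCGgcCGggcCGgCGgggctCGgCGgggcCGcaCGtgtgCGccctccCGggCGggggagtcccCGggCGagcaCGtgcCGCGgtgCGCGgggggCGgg
TET2: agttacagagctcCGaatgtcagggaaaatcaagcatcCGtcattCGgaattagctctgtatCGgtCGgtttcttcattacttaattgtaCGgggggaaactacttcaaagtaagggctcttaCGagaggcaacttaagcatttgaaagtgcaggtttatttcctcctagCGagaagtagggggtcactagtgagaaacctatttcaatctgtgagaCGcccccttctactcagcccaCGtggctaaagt
EZH2: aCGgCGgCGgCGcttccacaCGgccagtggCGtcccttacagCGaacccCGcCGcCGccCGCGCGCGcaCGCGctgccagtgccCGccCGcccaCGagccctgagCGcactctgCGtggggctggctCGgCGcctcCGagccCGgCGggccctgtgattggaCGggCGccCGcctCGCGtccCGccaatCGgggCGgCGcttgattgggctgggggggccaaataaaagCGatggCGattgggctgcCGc
SUZ12: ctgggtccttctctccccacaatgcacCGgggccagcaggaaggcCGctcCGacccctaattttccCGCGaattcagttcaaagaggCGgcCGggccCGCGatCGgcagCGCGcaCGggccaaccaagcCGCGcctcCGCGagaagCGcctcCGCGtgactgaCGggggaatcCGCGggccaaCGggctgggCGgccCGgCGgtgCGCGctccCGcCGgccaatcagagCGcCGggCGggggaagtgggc
EZH2, TET3, SUZ12 and UHRF1 have 38, 37, 34 and 28 CpG pairs in this window, DNMT1 has 21 and TET2 has 10. A window was counted as CpG-rich when its GC content was at least 50% and its CpG pairs were at least 0.6 of the number expected from its base composition. By that measure the windows of 7 of the 10 genes were CpG-rich, against 44.9% of the 27305 promoters of the table, and those of TET1, TET2 and DNMT3B were not. Other transcription starts of a gene were not looked at. The letters TTTGGCGC, TTTCCCGC, TTTGCCGC or TTTCGCGC, common forms of the E2F site, were found on either strand in the windows of UHRF1 and SUZ12 and in 2.79% of all promoters, and in none of the 3 genes that fell. This says only that these letters are not in those 250 bases.

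DNMT1, the maintenance methyltransferase, had 409, 384 and 342 CPM in control 1, 2 and 3, against 234 and 246 CPM in knockdown 1 and 2 and 411 CPM in the library labelled knockdown 3. The knockdown 1 and 2 libraries lay below every other library. The control 1 and 2 mean was 397 ± 17.98 CPM and that of knockdown 1 and 2 was 240 ± 8.77 CPM (SD, n = 2 each), a log2 fold change of -0.73 (standard error 0.0838, edgeR adjusted p = 0.0249). Over 12 alternative settings the log2 fold change lay between -0.77 and -0.60 and the adjusted p from edgeR or DESeq2 between 6.54e-05 and 0.148, with 6 of the 12 passing. Against all 3 controls DNMT1 did not pass (edgeR adjusted p = 0.0566). It shares its locus in the table with S1PR2, which had a log2 fold change of 0.06 (edgeR adjusted p = 0.862).

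UHRF1, which guides DNMT1 to replicated DNA, did not pass the test. Its level was 264, 309 and 314 CPM in the controls, 289 and 389 CPM in knockdown 1 and 2 and 317 CPM in the library labelled knockdown 3. The groups overlapped, with a log2 fold change of 0.23 (standard error 0.186, edgeR adjusted p = 0.460). Compared per length of transcript, in CPM per kilobase, the ratio of DNMT1 to UHRF1 was 0.926, 0.742 and 0.650 in the controls, 0.484 and 0.379 in knockdown 1 and 2, and 0.775 in the library labelled knockdown 3. Knockdown 1 and 2 had the lowest ratios of the 6 libraries. This ratio was not tested, and the fall of DNMT1 by itself lowers it.

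The de novo methyltransferases moved in opposite directions, without passing the test. DNMT3A was at 14.7, 13.9 and 10.4 CPM in the controls, 20.0 and 17.1 CPM in knockdown 1 and 2 and 16.0 CPM in the library labelled knockdown 3 (log2 fold change 0.37, standard error 0.162, edgeR adjusted p = 0.216 for knockdown 1 and 2). Over the 6 libraries the log2 fold change was 0.45 (edgeR adjusted p = 0.581), so DNMT3A did not pass there either.

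DNMT3B was at 26.4, 23.9 and 17.96 CPM in the controls, 17.7 and 18.9 CPM in knockdown 1 and 2 and 26.2 CPM in the library labelled knockdown 3. Control 3 lay among the knockdown libraries, and the log2 fold change without replicate 3 was -0.47 (standard error 0.137, edgeR adjusted p = 0.107). The ratio of DNMT3A to DNMT3B in CPM per kilobase was 0.253 to 0.266 in the 3 controls, 0.517 and 0.413 in knockdown 1 and 2, and 0.280 in the library labelled knockdown 3. The changes of the 2 genes were not tested against each other.

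**Figure D1:**
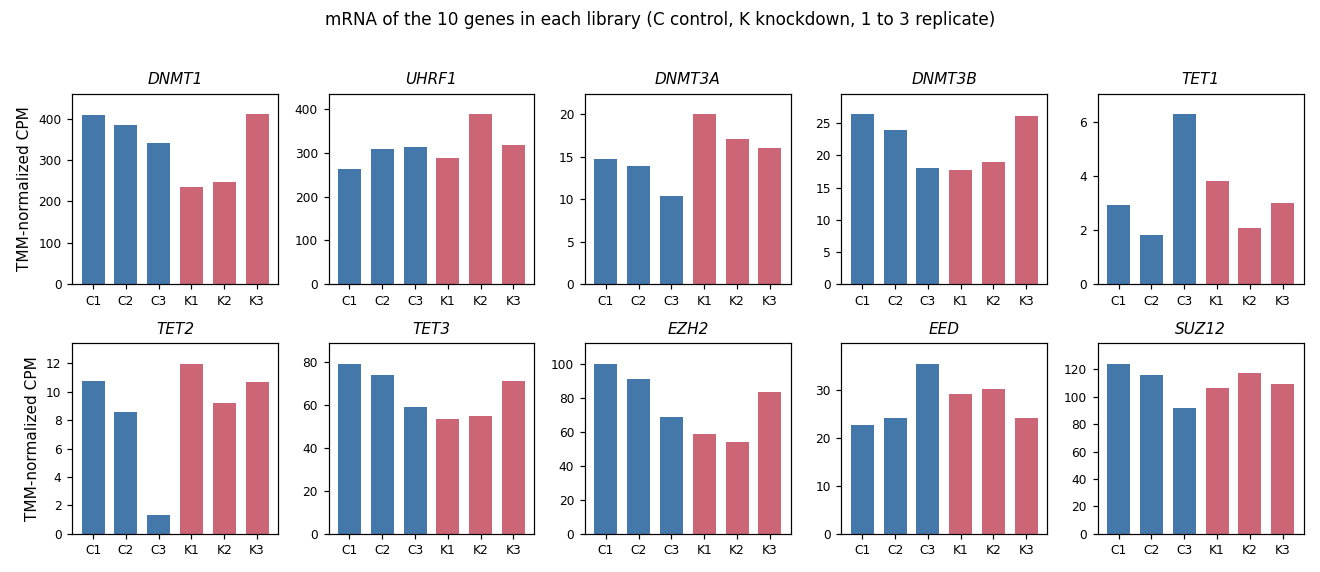
Levels of the 10 genes as TMM-normalized CPM (vertical axes, each from 0), 1 bar per library, controls (C1 to C3) in blue and knockdown libraries (K1 to K3) in red. DNMT1, EZH2 and TET3 are lowest in K1 and K2, with K3 near the controls, and TET2 is at 1.31 CPM in C3 and 8.54 to 11.96 CPM elsewhere.

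Among the erasers, TET3 had the highest level per kilobase, and it fell. TET3 was at 79.3, 74.0 and 59.0 CPM in control 1, 2 and 3, at 53.5 and 55.2 CPM in knockdown 1 and 2, and at 71.1 CPM in the library labelled knockdown 3. Knockdown 1 and 2 were below every control, although control 3 came within a few CPM of them. The log2 fold change was -0.50 (standard error 0.0917, edgeR adjusted p = 0.0459), and the mean went from 76.6 ± 3.81 to 54.3 ± 1.16 CPM (SD, n = 2 each). Over the alternatives the adjusted p from edgeR or DESeq2 ranged from 0.0196 to 0.254 and 4 of 12 passed. It no longer passed with scaling by library size alone (edgeR adjusted p = 0.0966), with no filter (0.0962) or against all 3 controls (0.254).

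TET2 was at 10.8 and 8.54 CPM in control 1 and 2 (306 and 237 counts) but at 1.31 CPM in control 3 (42 counts). It stood at 11.96, 9.23 and 10.7 CPM in knockdown 1 and 2 and the library labelled knockdown 3. So 5 libraries lay close together and control 3 lay below all of them. The log2 fold change of control 3 against control 1 and 2 was -2.88 (standard error 0.334, edgeR adjusted p = 0.0503, and 2.61e-08 in DESeq2), with the single library assumed to vary like the others. Between knockdown 1 and 2 and control 1 and 2 it was 0.13 (edgeR adjusted p = 0.752).

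TET1 was the least abundant of the 10 genes, with 83, 50 and 201 counts (2.92, 1.80 and 6.29 CPM) in the controls, 138 and 97 counts (3.81 and 2.07 CPM) in knockdown 1 and 2 and 128 counts in the library labelled knockdown 3. The groups overlapped (log2 fold change 0.31, standard error 0.446, edgeR adjusted p = 0.686), and the sign turned to -0.33 against all 3 controls. The ratio of TET3 to TET2 in CPM per kilobase was 3.99 to 7.73 in the 5 libraries other than control 3, and 40.1 in control 3.

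In PRC2, the catalytic subunit EZH2 fell, and its partners EED and SUZ12 did not pass the test. EZH2 was at 100 CPM in control 1, 91.2 CPM in control 2 and 69.2 CPM in control 3, at 58.6 and 53.9 CPM in knockdown 1 and 2, and at 83.8 CPM in the library labelled knockdown 3. Knockdown 1 and 2 were the lowest libraries and control 3 came next. The mean fell from 95.7 ± 6.46 to 56.3 ± 3.33 CPM (SD, n = 2 each), a log2 fold change of -0.77 (standard error 0.107, edgeR adjusted p = 0.0313). Over 12 alternatives it lay between -0.88 and -0.63, with adjusted p from edgeR or DESeq2 between 0.000269 and 0.164 and 5 passing, and it was not called with scaling by library size alone (edgeR adjusted p = 0.0541) or against all 3 controls (0.145).

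EED was at 22.8, 24.3 and 35.6 CPM in the controls, 29.2 and 30.4 CPM in knockdown 1 and 2 and 24.3 CPM in the library labelled knockdown 3. Control 3 was the highest library, so the controls spanned the knockdown values (log2 fold change 0.33 without replicate 3, standard error 0.123, edgeR adjusted p = 0.161). SUZ12 was at 124, 116 and 92.1 CPM in the controls and 106, 117 and 109 CPM in knockdown 1, 2 and 3. The groups overlapped (log2 fold change -0.11, standard error 0.0977, edgeR adjusted p = 0.508).

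Ratios between the PRC2 mRNAs are given as a description and were not tested. A fall of EZH2 by itself lowers each of them. The ratio of EZH2 to EED in CPM per kilobase was 3.71, 3.16 and 1.64 in the controls, 1.69 and 1.49 in knockdown 1 and 2, and 2.91 in the library labelled knockdown 3, so control 3 was as low as the knockdown cells. The ratio of EZH2 to SUZ12 was 1.28 to 1.38 in the 3 controls, 0.938 and 0.784 in knockdown 1 and 2, and 1.30 in the library labelled knockdown 3. EZH2 to its paralogue EZH1, the catalytic subunit of resting cells, was 4.85 to 5.86 in the 3 controls against 3.50, 3.71 and 4.05 in knockdown 1, 2 and 3. The share of gene pairs separated between the arms in this way is not known. EZH1 itself had a log2 fold change of -0.19 (edgeR adjusted p = 0.537).

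Per kilobase, the order of the levels in control 1 and 2 was UHRF1 (88.7 CPM per kilobase), DNMT1 (73.3), EZH2 (36.3), SUZ12 (26.7), EED (10.6), TET3 (6.73), DNMT3B (5.80), DNMT3A (1.51), TET2 (0.949) and TET1 (0.254). The values of control 1 and 2 did not overlap between any neighbours in this order. In control 3 the last 2 changed places, with TET1 at 0.677 and TET2 at 0.129 CPM per kilobase. The lengths are those of the main annotated transcript and were not measured in these cells.

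Of the 10 genes, 6 had no overlap between knockdown 1 and 2 and control 1 and 2 (DNMT1, DNMT3A, DNMT3B, TET3, EZH2 and EED), which 62.7% of all tested genes also did. With control 3 and the library labelled knockdown 3 added, DNMT1, EZH2 and TET3 had log2 fold changes of -0.35, -0.41 and -0.24 (edgeR adjusted p of 0.631, 0.593 and 0.654).

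Whether the knockdown effect differed in replicate 3 was tested as an interaction, in which each single library of that number is assumed to vary like the others. PPP2R1A differed by 1.85 (edgeR adjusted p = 0.0267). None of the 10 genes passed, against a background of 3.64% of all tested genes (1.89% higher and 1.76% lower), and 6 had an unadjusted p under 0.05, beside 26.3% of all tested genes. The differences were 1.00 for DNMT1, 1.06 for EZH2, 0.78 for TET3 and 2.90 for TET2 on the log2 scale (edgeR adjusted p of 0.0584, 0.0692, 0.0884 and 0.0541). DESeq2 called DNMT1, EZH2 and TET2 (adjusted p of 0.00481, 0.0117 and 6.64e-05). These contrasts use control 3 as well as the library labelled knockdown 3, and the value of TET2 rests on its low count in control 3.

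The spread among control cells was measured by control 3 against control 1 and 2. None of the 10 genes passed in edgeR, against a background of 2.05% (1.01% higher and 1.04% lower), and 5 had an unadjusted p under 0.05, beside 23.8% of all tested genes. Besides TET2, the log2 differences were 1.41 for TET1 (edgeR adjusted p = 0.212), 0.59 for EED (adjusted p = 0.125), -0.49 for DNMT3B (adjusted p = 0.210), -0.47 for EZH2 (adjusted p = 0.153) and -0.47 for DNMT3A (adjusted p = 0.263), and those of the other genes were smaller in size. The differences of EZH2, TET3 (-0.38, edgeR adjusted p = 0.177) and DNMT1 (-0.22, adjusted p = 0.327) between controls lie in the direction of their falls in the knockdown. The values of those falls were -0.77, -0.50 and -0.73.

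Genes next to each other on a chromosome can move together, so each gene was also measured against the median of its 100 nearest expressed genes. DNMT1 then had a log2 fold change of -0.61, EZH2 of -0.88 and TET3 of -0.58 in knockdown 1 and 2 (edgeR adjusted p of 0.0330, 0.0317 and 0.0482). All 3 still passed. The neighbours of TET1 were lower by 0.54 and 0.49 on the log2 scale in knockdown 1 and 2, and against them TET1 had a log2 fold change of 0.84 (edgeR adjusted p = 0.306). The neighbours of EED were higher by 0.40 in control 3, so that its difference there went from 0.59 to 0.19, and those of EZH2 were higher by 0.33, so that its difference went from -0.47 to -0.80 (edgeR adjusted p of 0.555 and 0.105).

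**Figure D2:**
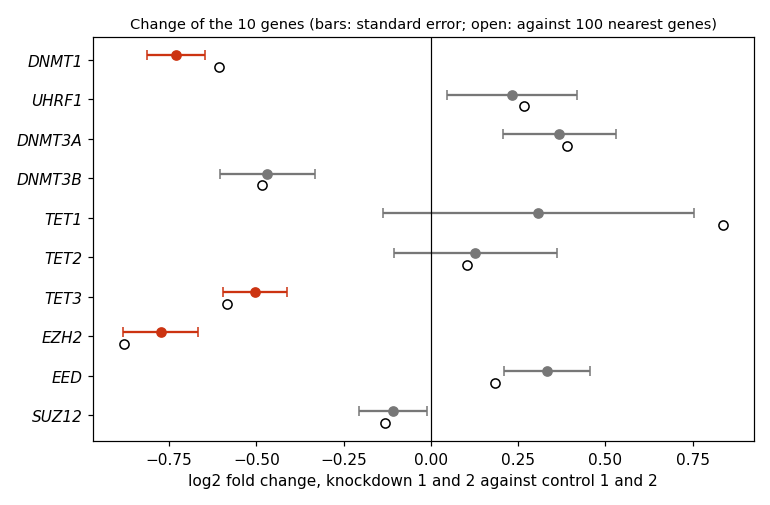
Log2 fold change of each of the 10 genes in knockdown 1 and 2 against control 1 and 2 (horizontal axis), with filled points and bars for the edgeR estimate and its standard error and open points for the change against the 100 nearest genes. DNMT1, EZH2 and TET3 (red) passed an adjusted p of 0.05, and their open points are at -0.61, -0.88 and -0.58.

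The wider machinery was described with lists of genes, in which rose and fell mean called at an adjusted p under 0.05. Their counts stand beside 7.15% of all tested genes called higher and 6.41% called lower. Their medians stand beside 0.01 for all tested genes. Of 18 tested partners of DNA methylation and demethylation, 0 rose and 1 fell. CXXC5, a zinc finger protein that binds unmethylated CpG, was at 10.5, 15.3 and 13.9 CPM in the controls, 4.14 and 3.22 CPM in knockdown 1 and 2 and 19.1 CPM in the library labelled knockdown 3 (log2 fold change -1.82, standard error 0.292, edgeR adjusted p = 0.0379), and it did not pass against its nearest genes (-1.45, adjusted p = 0.0622). HELLS, a chromatin remodeller needed for full DNA methylation, was named after its values were seen. It was at 15.1, 17.3 and 15.9 CPM in the controls and 9.20, 7.80 and 6.98 CPM in knockdown 1, 2 and 3. HELLS passed neither with 4 libraries (log2 fold change -0.94, edgeR adjusted p = 0.0525) nor with 6 (-1.01, adjusted p = 0.581). The median log2 fold change of the list was 0.05, and none of the 8 tested readers of methylated CpG passed.

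Of 10 other tested PRC2 subunits, 1 rose and 2 fell, beside 7.15% and 6.41% of all tested genes. The list median was -0.35, beside 0.01 for all tested genes, with negative values for 8 of the 10. The histone-binding subunits RBBP4 and RBBP7, which also serve other chromatin complexes, fell. RBBP4 went from 292 and 293 CPM in control 1 and 2 to 197 and 197 CPM in knockdown 1 and 2, with 329 CPM in control 3 and 292 CPM in the library labelled knockdown 3 (log2 fold change -0.58, edgeR adjusted p = 0.0300). RBBP7 went from 358 and 319 to 222 and 199 CPM, with 346 CPM in control 3 and 322 CPM in the library labelled knockdown 3 (-0.69, edgeR adjusted p = 0.0388). Against their nearest genes the changes were -0.18 and -0.22 (edgeR adjusted p of 0.230 and 0.311).

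JARID2, an accessory subunit that helps bring PRC2 to its targets, rose. It was at 5.59, 5.84 and 9.57 CPM in control 1, 2 and 3, at 11.8 and 11.7 CPM in knockdown 1 and 2, and at 7.10 CPM in the library labelled knockdown 3 (log2 fold change 1.03, standard error 0.156, edgeR adjusted p = 0.0348). Control 3 was again nearer to the knockdown cells than the other controls were.

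PRC1 is the complex that binds histone H3 marked by PRC2 and ubiquitinates histone H2A. Of its 24 tested subunits, 1 rose and 2 fell, beside 7.15% and 6.41% of all tested genes. Their median was -0.26, with negative values for 19. BMI1, a core ring finger subunit, was at 4.47, 3.46 and 5.63 CPM in the controls, 21.1 and 16.4 CPM in knockdown 1 and 2 and 3.59 CPM in the library labelled knockdown 3 (log2 fold change 2.23, standard error 0.245, edgeR adjusted p = 0.0238). COMMD3 shares its locus and rose by 1.41 (edgeR adjusted p = 0.0451), and reads of the 2 genes and their readthrough transcript may be split between them. The chromodomain subunit CBX2 was at 49.4, 49.8 and 28.8 CPM in the controls, 27.0 and 28.2 CPM in knockdown 1 and 2 and 54.4 CPM in the library labelled knockdown 3. It fell by 0.85 on the log2 scale (edgeR adjusted p = 0.0261), but control 3 was at the level of the knockdown cells. PHC2, a polyhomeotic subunit, fell from 44.4 and 49.7 to 23.2 and 24.4 CPM, with 58.8 CPM in control 3 and 43.1 CPM in the library labelled knockdown 3 (log2 fold change -0.99, edgeR adjusted p = 0.0274).

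None of the 13 tested opponents of Polycomb passed, and KDM6A, ASXL3 and ARID1B had no count in any library. KDM6B, a demethylase of H3 lysine 27 named after its values were seen, was at 17.5, 16.9 and 2.19 CPM in control 1, 2 and 3 and at 31.5, 18.8 and 25.5 CPM in knockdown 1, 2 and 3. Like TET2 it was lowest in control 3 (log2 difference from control 1 and 2 of -2.97, edgeR adjusted p = 0.0659).

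Of 13 tested genes of the cycle that supplies the methyl donor S-adenosylmethionine and of TET cofactor supply, 0 rose and 1 fell. IDH2, which makes the TET cofactor 2-oxoglutarate in mitochondria, went from 81.0 and 80.5 CPM in control 1 and 2 to 50.2 and 47.5 CPM in knockdown 1 and 2, with 86.5 CPM in control 3 and 73.8 CPM in the library labelled knockdown 3 (log2 fold change -0.73, edgeR adjusted p = 0.0276). IDH1 of the same list moved the other way without passing, and was named after its values were seen. It was at 34.2, 26.8 and 76.5 CPM in control 1, 2 and 3, and at 69.8, 55.1 and 33.1 CPM in knockdown 1, 2 and 3. Its log2 fold change was 1.03 (edgeR adjusted p = 0.0517).

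Since DNMT1, UHRF1 and EZH2 are transcribed with the genes of S phase, 24 genes of replication and the E2F programme were set beside them. Of these 0 rose, 2 fell and 22 did not pass, with a median of -0.14. E2F1, an activating factor of this programme, was at 73.5, 72.3 and 52.8 CPM in the controls, 33.7 and 29.5 CPM in knockdown 1 and 2 and 43.1 CPM in the library labelled knockdown 3 (log2 fold change -1.21, standard error 0.117, edgeR adjusted p = 0.0201). With all 6 libraries E2F1 did not pass (-0.90, edgeR adjusted p = 0.581). GINS4, a subunit of the replicative helicase, was at 114, 122 and 211 CPM in the controls, 74.3 and 81.7 CPM in knockdown 1 and 2 and 114 CPM in the library labelled knockdown 3 (log2 fold change -0.61, edgeR adjusted p = 0.0396). The part of E2F1 in the levels of DNMT1 and EZH2 was not tested.

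**Figure D3:**
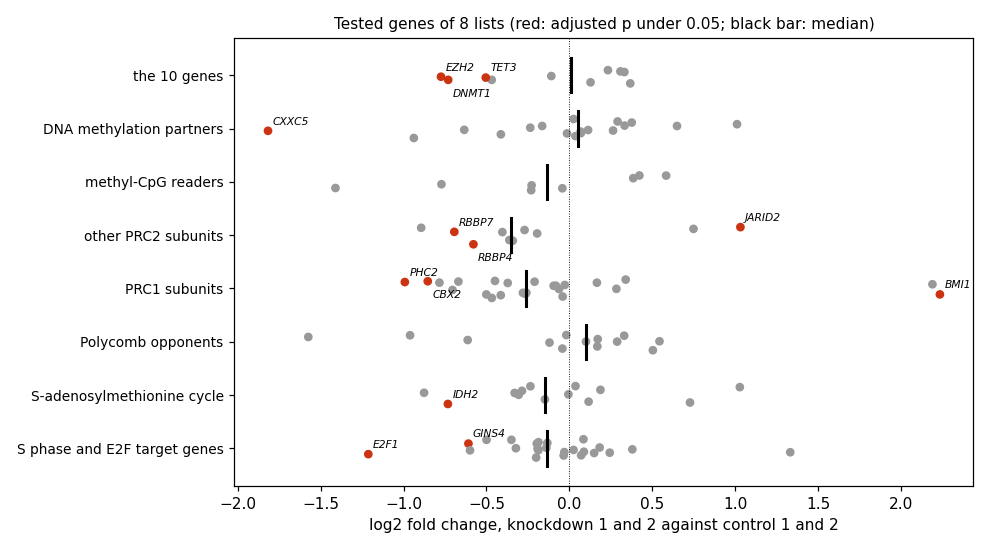
Log2 fold change in knockdown 1 and 2 against control 1 and 2 (horizontal axis) of the tested genes of 8 lists, 1 point per gene, red where edgeR's adjusted p was under 0.05 and black bars at the list medians. The medians of the other PRC2 subunits and of the PRC1 subunits are at -0.35 and -0.26, and most genes of every list are grey.

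Germline genes that somatic cells silence by promoter methylation were looked at as well. Of 32 such genes, 26 had no count in any library and 1, PRAME, was abundant enough to be tested. PRAME, a cancer-testis antigen, was at 38.8, 46.5 and 33.3 CPM in the controls, 2.15 and 2.17 CPM in knockdown 1 and 2 and 46.2 CPM in the library labelled knockdown 3. It fell in knockdown 1 and 2 against control 1 and 2, with a log2 fold change of -4.31 (standard error 0.181, edgeR adjusted p = 0.0107). PRAME was expressed in every control, and methylation of its promoter was not measured.

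Genes that were fully on in some libraries and off in others were counted as those at 5 CPM or more in every library of a group and under 0.1 CPM in every library of the other. There were 15 such genes on in knockdown 1 and 2 and off in control 1 and 2, and 24 the other way, and none of the 10 genes was among them. The most abundant that came on were KITLG, NR5A2, PKP2, LIF and TM4SF4, and those that went off were COL1A2, MLPH, NECTIN3, NTSR1 and GSTM3. KITLG, which encodes stem cell factor, had no count in any control or in the library labelled knockdown 3 and stood at 129 and 116 CPM in knockdown 1 and 2. NTSR1, the neurotensin receptor, was at 33.5 to 69.6 CPM in those 4 libraries and had no count in knockdown 1 and 2.

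Such switches also separated control libraries from each other. Between control 3 and control 1 and 2, 35 genes were on in control 3 alone and 14 were off in it alone, against 5 and 4 for the library labelled knockdown 3 compared with control 1 and 2. PKP2, a desmosome protein, had 0 and 2 counts in control 1 and 2, 1110 in control 3, 2776 and 5091 in knockdown 1 and 2 and 0 in the library labelled knockdown 3. LIF, a cytokine, had no count in control 1 and 2 and 27.5 CPM in control 3, 74.6 and 72.8 CPM in knockdown 1 and 2 and 17.2 CPM in the library labelled knockdown 3. Among the 10 genes the only level that came near to such a switch was that of TET2 in control 3, at 1.31 CPM. No methylation or histone mark was measured in these libraries.

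The genes whose log2 CPM followed the 3 fallen genes most closely over the 6 libraries were PPIL4 and FOXJ3 for DNMT1 (Pearson r of 0.998 and 0.997), REEP3, PTTG1 and LRRC8B for EZH2 (0.999, 0.995 and 0.992) and CYB5R1, RIT1 and SSR1 for TET3 (0.993, 0.992 and 0.992). With 6 libraries that share their groups such values are common: 376, 161 and 170 of 10683 genes had an r over 0.95 with DNMT1, EZH2 and TET3. Among the 10 genes themselves, EZH2 and TET3 followed each other with an r of 0.978, DNMT1 and EZH2 with 0.931 and DNMT1 and TET3 with 0.916, while DNMT1 and UHRF1 had an r of -0.44 over the same 6 libraries.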

How the data were processed

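RNA of 6 samples of MiaPaCa2 cells was sequenced from TruSeq libraries. The authors made the deposited counts, whole numbers per gene, with FastQC, STAR and StringTie. Their versions and settings, and the build and gene models behind the counts, were not given in the sources used here. StringTie works from coverage, so the counts are estimates of reads, and overlapping genes may share them.

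The 10 genes, the gene lists and the tests were chosen with earlier results of these data known. Of the 42540 rows, 159 exact second copies were left out (at most 0.102% of a library), and the highest-total row of a repeated symbol was used. Counts were analysed by the quasi-likelihood F test of edgeR 4.0.16 in R 4.3.3, after filterByExpr and TMM normalization, over all tested genes, with Benjamini-Hochberg adjustment at 0.05. All printed p-values are from this model or, where named, from DESeq2 1.42.0. The genes named are PPP2R1A, the 10 genes, up to 6 genes per list that passed with the smallest p, the 3 most alike genes of each gene that fell, and up to 5 switched genes in each direction. The result of 1 gene under this rule is not reported here. HELLS, KDM6B and IDH1 lie outside the rule and were named after their values were seen. EZH1, the markers and the other genes of a shared locus (S1PR2, COMMD3) are outside it too and are given as context.

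The 100 nearest genes were genes of at least 5 CPM on the same chromosome, by their positions in a RefSeq gene table. Log2 ratios and correlations took a pseudocount of 0.5 CPM. Promoters are from RefSeq and were matched by symbol, which found all 10 genes but 8 of 15 genes that came on and 72.1% of all tested genes. A comparison of CpG content between switched genes and the rest is therefore void and is not given. Over all 6 libraries, deviations from the group means were not shared by libraries with equal numbers (correlations of -0.0182, -0.0324 and -0.122 for numbers 1, 2 and 3). In the 4 libraries of the main comparison, the difference between numbers 1 and 2 had a correlation of 0.0711 between the arms. The labels name no shared day, and the block for the number is given as an alternative, although equal numbers may mark a shared time. Its values stand beside the calls it ends. Other scalings, no filter, summed rows, all 3 controls and each library left out were tried as well. The edgeR step was tested on simulated counts. Tables were prepared with pandas 2.3.3 and numpy 2.4.6 in Python 3.11.15.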

Additional observations from a re-analysis of the deposited data

Results flagged for a closer look

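For 11 of the genes named, the knockdown effect in replicate 3 differed from that in replicates 1 and 2 in edgeR's interaction test, with the single libraries of replicate 3 assumed to vary like the others. The difference was 1.85 on the log2 scale for PPP2R1A (edgeR adjusted p = 0.0267), 1.78 for CBX2 (adjusted p = 0.0378) and 4.79 for PRAME (adjusted p = 0.0188). The epithelial keratins KRT8 and KRT18 differed by -4.37 and -3.89 (adjusted p of 0.0183 and 0.0253). Of the genes that switched on or off, PKP2 and LIF differed by -24.48 and -15.03 (adjusted p of 0.0188 and 0.0176), and COL1A2, MLPH, NTSR1 and GSTM3 by 10.74, 11.09, 12.55 and 13.57 (adjusted p of 0.0197, 0.0253, 0.0291 and 0.0203). The values of these 6 genes depend on the prior count, since some libraries are at 0, and are no bounds on a fold. PPP2R1A and PRAME were at control level in the library labelled knockdown 3. CBX2 was at 54.4 CPM there and at 28.8 CPM in control 3, so both libraries of replicate 3 enter its difference.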

How the results depend on the processing

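Of 523 values of single genes under the alternatives, 416 kept their direction and their side of the threshold, 94 lost their call, 5 gained one and 8 turned. Most of the lost calls came from fits with 1 library left out and from the block. In those fits edgeR called few or no genes of the table, so these losses say little about the processing. The number of the 10 genes called lower in knockdown 1 and 2 against control 1 and 2 went from 3 to 1 with scaling by library size alone and to 0 against all 3 controls. It was 0 to 0 over the fits that left out 1 library, in which edgeR called 0 genes of the whole table (smallest adjusted p 0.0517 to 0.0617), with 3377 to 4797 genes at an unadjusted p under 0.05. DESeq2 called 3 of the 10 genes higher in the replicate 3 interaction, and DESeq2 and RLE size factors each called 1 (TET2) lower in control 3, where edgeR called 0. Over the whole table DESeq2 called 3294 genes, and edgeR 1380 with no filter and 1316 against the nearest genes, beside 2114. Scaling by library size alone gave 1406 higher and 744 lower, beside 1115 and 999, and moved the median log2 fold change of all genes from 0.01 to 0.15.

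With the replicate number as a block, edgeR called 0 of the 10 genes and 0 genes of the table (smallest adjusted p = 0.0630, with 5162 genes at an unadjusted p under 0.05), and 0 in the fits of all 6 libraries and of the interaction. The adjusted p under the block was 0.0653 for DNMT1. The labels do not say whether equal numbers mark a shared sampling time. Correlations between the arms for equal numbers lay between -0.122 and 0.0711. No paired analysis was possible for control 3 against control 1 and 2 because the number and the contrast are the same.

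Signs turned for TET1 (-0.33 against all 3 controls, and -0.19 to 0.69 with 1 library left out, negative without knockdown 1), TET2 (-0.068 to 0.31 with 1 library left out, negative without control 2, at -0.024, or knockdown 1) and SUZ12 (0.010 against all 3 controls, 0.025 by library size alone) in knockdown 1 and 2, and for UHRF1 in the interaction (-0.42 to 0.016 with 1 library left out, positive without knockdown 2) and in control 3 (-0.0019 against the nearest genes). None of these passed the test in either setting. Genes on in knockdown 1 and 2 numbered 72 at limits of 1 and 0.1 CPM and 37 at 5 and 0.5 CPM, beside 15, and genes off 54 and 39, beside 24. The cause of these changes was not tested. Precision is limited by 2 libraries a group, and for TET1 by 50 to 201 counts a library.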
